A study of Mus musculus with 18 samples.

Results

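The 94 genes described here encode the nuclear subunits of the mitochondrial oxidative phosphorylation machinery, together with a few isoforms and assembly factors that share their names. They were taken by symbol from the 32285 genes of the mouse dorsal dermis data: every gene starting with Nduf, Uqcr, Atp5 or Cox4 to Cox8, the 4 Sdh subunit genes and Cyc1, pseudogenes named as such left out. By name they fall into complex I (NADH dehydrogenase, 36 genes), complex II (succinate dehydrogenase, 4), complex III (cytochrome bc1 complex, 9), complex IV (cytochrome c oxidase, 20, with Ndufa4 and Ndufa4l2 placed here), complex V (ATP synthase, 17) and the 8 Ndufaf genes, named as complex I assembly factors.

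Oxidative phosphorylation passes electrons from NADH and succinate through complexes I to IV to oxygen, pumps protons across the inner mitochondrial membrane on the way, and uses the returning protons to make ATP at complex V. Most subunits are encoded in the nucleus and imported, and a small core is encoded and translated inside the mitochondrion, so both genomes have to supply each complex except complex II. Several complex IV subunits exist as a widely expressed form and a heart and skeletal muscle form, and skeletal muscle is known as a tissue rich in these complexes.

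The samples were 18 single-cell RNA libraries of dorsal dermis from wild-type male C57BL/6J mice about 54 days old, kept under 12 h of light and 12 h of darkness. Skin at this age was in telogen, the resting phase of the hair cycle. There were 3 libraries at each of ZT2, ZT6, ZT10, ZT14, ZT18 and ZT22, where ZT (zeitgeber time) counts the hours after lights on, and the 3 replicates of a time were collected on successive days. Each library came from a mouse of its own. The dermis was digested with collagenase and live cells were sorted before 10x 3′ capture, with no further treatment or genotype, so every comparison is between cell types or between times.

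Of 23990 cell barcodes, 16877 were kept, in libraries of 4850221 to 40827442 unique molecular identifiers (UMIs), and the clusters were named from markers after the members and the mitochondrially encoded genes had been set aside. Fibroblasts made up 12279 cells (107 to 1575 per library), immune cells 3366 (31 to 446) and skeletal muscle cells 739 (1 to 104). A cluster of 111 cells named endothelial, with Fabp4 and Egfl7 but also Myf5 and Pax7 among its leading genes, was not used. Nor were 382 cells in unnamed clusters. The muscle group is called cells for its markers, and whether its barcodes hold whole cells, fibre fragments or nuclei cannot be told apart here. All 18 libraries gave fibroblast and immune sums, and 12 libraries had the 20 muscle cells needed for a muscle sum. The names held against the markers: 6 fibroblast markers (collagens, Dcn, Lum, Pdgfra) summed to a median of 754 UMIs per 10000 in fibroblasts and 11.3 in immune cells, 7 immune markers to 184 in immune cells and 0.123 in fibroblasts, and 6 muscle markers to 2170 in muscle cells and 0.310 in fibroblasts. In the muscle sums the fast myosins Myh4 and Myh1 stood at 16.4 and 9.13 per 10000, Myh2 at 0.250, and the slow myosin Myh7 at 0. Barcodes shared between libraries numbered 164 of 23824.

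Replicate 1 of ZT14 stood apart from the other libraries. An interferon-gene cluster (Ifit3, Ifit1, Iigp1) held 18.8% of its fibroblasts, against 0.381% to 2.80% in the other libraries, and a cluster led by S100a9 and S100a8 held 33.7% of its immune cells, against 0% to 7% elsewhere. In the muscle sums, replicate 3 of ZT18 had the most fibroblast marker UMIs, 112 per 10000 against a median of 1.61. Some results are also given without these libraries. Without replicate 3 of ZT18 these are the differences of Cox8a and Ndufaf2 and the counts called in muscle. The other muscle differences are given only with that library.

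Counts were summed over the cells of a type within a library, and a level is the number of UMIs of a gene per 10000 UMIs of that sum. A 3′ UMI counts a transcript once whatever its length, so levels of different genes were set side by side without scaling by length. In such sums, fewer cells expressing a gene and fewer transcripts per cell cannot be told apart.

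The 94 members together made up 1.34% of fibroblast UMIs, 1.47% of immune UMIs and 8.25% of muscle UMIs. The summed level in fibroblasts was 134 ± 7.63 per 10000 (SD, n = 18), with a lowest library of 119, a median of 136 and a highest of 146. In immune cells it was 147 ± 11.8 (n = 18), from 126 through a median of 145 to 173. In muscle cells it was 825 ± 51.6 (n = 12), from 725 through a median of 842 to 892, so no muscle library came near any fibroblast or immune library, whereas fibroblast and immune ranges overlapped. By the median single cell, muscle was again far above, with 832 member UMIs per 10000. Fibroblasts at 136 (quartiles 118 and 152) and immune cells at 137 (quartiles 94.1 and 171) were nearly equal.

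Each of the 5 complexes showed this order of muscle far above the other cell types. Complex V summed to 274 ± 15.96 per 10000 in muscle, 45.8 ± 3.998 in immune cells and 39.1 ± 2.44 in fibroblasts. Complex IV summed to 233 ± 17.2, 43.0 ± 3.42 and 37.1 ± 1.89 in the same order, and complex III to 89.9 ± 6.04, 14.9 ± 1.16 and 13.1 ± 0.899. Complex I was the exception between the other cell types, with 215 ± 13.5 in muscle, 39.3 ± 3.34 in immune cells and 40.9 ± 2.42 in fibroblasts. Complex II, the smallest, was at 8.05 ± 1.01, 2.83 ± 0.325 and 2.63 ± 0.177, and the Ndufaf assembly factors were at 5.84 ± 0.587, 1.26 ± 0.144 and 1.42 ± 0.152. For every complex the fibroblast and immune ranges overlapped, and the muscle range overlapped neither.

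**Figure D1:**
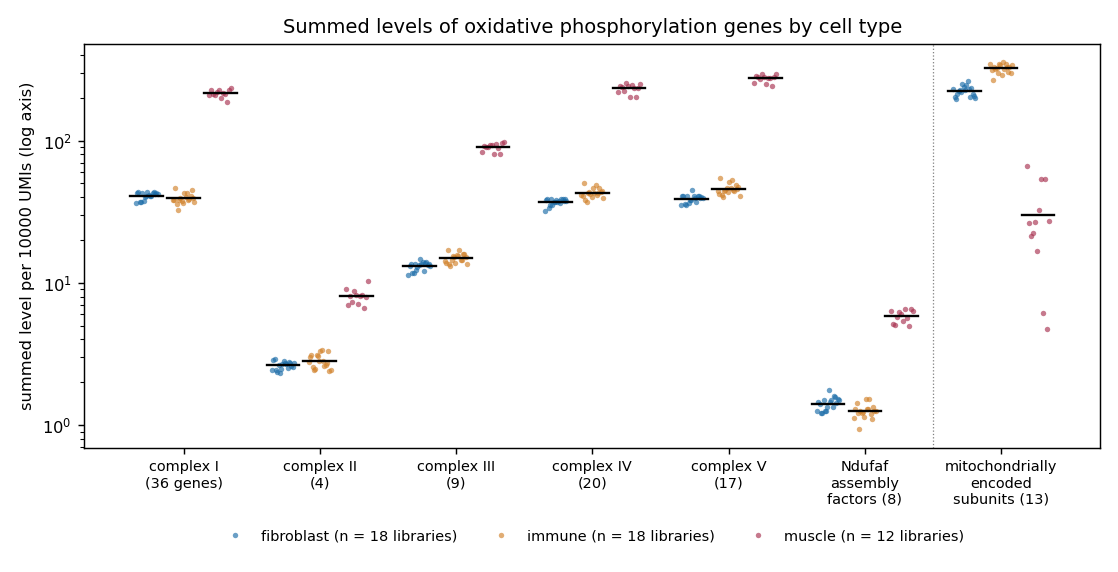
Summed levels per 10000 UMIs (log axis) of the members of each complex, of the 8 Ndufaf genes and of the 13 mitochondrially encoded subunits. Points are libraries, black bars are means over 18 fibroblast, 18 immune and 12 muscle libraries, and the muscle points lie above the others for every nuclear-encoded group and below them for the mitochondrially encoded group.

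The most abundant member in muscle was Atp5e, the epsilon subunit of the ATP synthase, at 45.1 per 10000 against 5.11 in fibroblasts and 5.95 in immune cells. Next came the complex IV subunits Cox7c, at 32.6 in muscle, 4.04 in fibroblasts and 5.73 in immune cells, and Cox6c, at 30.8, 5.95 and 4.52. Atp5g1, which encodes a copy of subunit c of the ATP synthase ring, was at 29.2 in muscle and 1.36 in fibroblasts. By the mean over the 3 cell types, the hinge protein gene Uqcrh (13.9 in muscle, 3.82 in fibroblasts) and Uqcrq (19.8 and 1.44) led complex III. In the same way Ndufa13 (10.6 and 2.99) and Ndufc1 (13.7 and 1.19), both accessory subunits, led complex I. Among the others, the iron-sulfur subunit gene Sdhb (3.41 and 0.544) and the membrane anchor gene Sdhc (1.94 and 0.556) led complex II, and Ndufaf5 (2.10 and 0.0567) and Ndufaf8 (1.76 and 0.420) led the assembly factors.

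At the other end, 3 members were hardly seen. Cox7b2 had no UMI in any of the summed cells, Cox8c had 1 UMI, in fibroblasts, and Cox4i2, the isoform of complex IV subunit 4 known from lung, had 9 UMIs in fibroblasts, 11 in immune cells and none in muscle cells. Its partner Cox4i1 was at 5.47, 6.02 and 15.5 per 10000 in fibroblasts, immune and muscle cells.

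The comparison of muscle cells with fibroblasts was made within the 12 libraries that held both, with edgeR's quasi-likelihood test. Of the 89 members that passed the low-count filter, 88 differed at an adjusted p under 0.05, 87 of them higher in muscle and 1 lower, whereas 82.6% of all 9442 genes tested differed, 36.1% higher and 46.5% lower. At least 2-fold higher were 85 members, against 28.5% of genes. These counts, and those with other scalings, include Cox6a2, Cox8b, Cox7a1 and Ndufaf5, which passed the low-count filter only with their muscle counts. The 1 lower, Cox6a1, passed it through its fibroblast counts, and these genes are described by their levels below. The median member was higher by 3.59 on the log2 scale, and the median gene tested was at -0.41. These values use TMM (trimmed mean of M-values) scaling. Scaling by total UMIs instead moved all genes down by 1.24, to a median of 2.36 for the members and -1.65 for all genes, and gave 85 members higher (20.9% of genes) and 4 lower (69.1%). In each of the 3 scalings tried (TMM, RLE and total UMIs) the same 85 members were called higher and the same 1 lower, and the direction differed between scalings for Cox8a, Ndufaf2 and Ndufaf7. RLE differed from total UMIs by a median of 0.04, so the sizes with TMM over the 12 libraries were the larger ones. With at least 10 muscle cells per library, TMM gave 85 of 90 members higher (21.5% of genes) and 5 lower (69.3%). The TMM values of this comparison therefore depended also on the cells and libraries summed. The TMM-scaled difference of Ndufaf2 was 0.79, 0.47 without replicate 3 of ZT18, and 0.05 (edgeR adjusted p = 0.769) without the highest Scrublet scores.

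The whole of complex I (36 of 36 tested), II (4 of 4), III (9 of 9) and V (17 of 17) was called higher in muscle. The medians were 3.56, 2.72, 4.05 and 4.05 on the log2 scale with TMM, and 2.33, 1.49, 2.82 and 2.82 scaled by total UMIs. Of the 15 complex IV genes tested 13 were higher and 1 was lower, and all 8 Ndufaf genes were called higher with TMM scaling. The smallest rises in complexes I and II were those of Ndufs1, the large iron-sulfur subunit of complex I, at 1.82 (SE 0.14), and of Sdha, the flavoprotein of succinate dehydrogenase, at 1.58 (SE 0.11). Scaled by total UMIs these differences were 0.58 and 0.35. By level the genes were higher in muscle in 9 and 10 of 12 libraries, and the muscle and fibroblast ranges overlapped for both. The 5 members not tested here were Cox4i2, Cox6b2, Cox7b2, Cox8c and Ndufa4l2, all of complex IV by the grouping used.

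**Figure D2:**
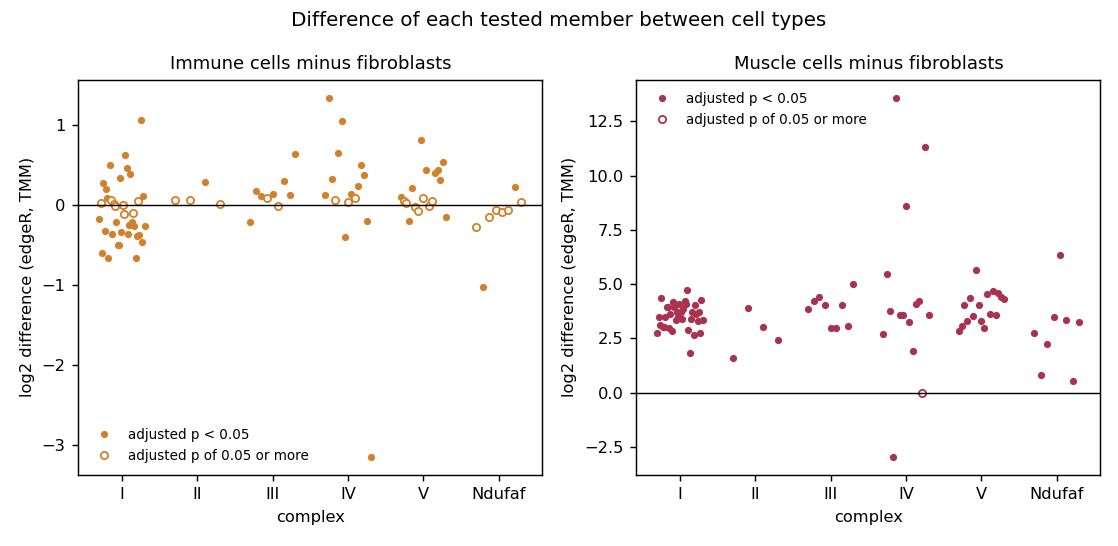
Log2 difference of each tested member from fibroblasts in immune cells (left) and muscle cells (right), from the edgeR fit with TMM scaling, by complex. Filled points passed an adjusted p of 0.05, and the 2 panels have different vertical scales. Members lay between -3.14 and 1.34 for immune cells and between -2.95 and 13.59 for muscle cells. The highest on the right, Cox6a2, Cox8b, Cox7a1 and Ndufaf5, passed the low-count filter only with their muscle counts. The lowest, Ndufa4l2 (left) and Cox6a1 (right), passed it through their fibroblast counts.

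The widest differences were in the complex IV genes that have a muscle form. Cox6a2, the heart and skeletal muscle form of subunit 6A, had levels in muscle of 23.2 to 34.4 per 10000 with a mean of 28.7 ± 3.26 (SD, n = 12). The widely expressed Cox6a1 ran the other way, at 2.14 in fibroblasts, 2.25 in immune cells and 0.120 in muscle cells, where 2 libraries had none and the highest, replicate 3 of ZT18 with its fibroblast marker UMIs, had 0.500. The ranges of muscle and fibroblasts overlapped for neither gene. Cox6a2 passed the low-count filter through its muscle counts alone and Cox6a1 through its fibroblast counts, so both differences are described by these levels. Cox6a1, the 1 member called lower in the count above, was lower in muscle in 12 of 12 libraries.

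For subunit 7A, the muscle form Cox7a1 was at 11.3 ± 1.48 per 10000 in muscle, from 9.16 to 13.8, against 0.0699 in fibroblasts and 0.0705 in immune cells. It was higher in muscle in 12 of 12 libraries, with no overlap. Cox7a1 passed the low-count filter only with its muscle counts, so its difference is described by these levels. The other forms did not leave muscle: Cox7a2 was at 8.70 in muscle, 2.13 in fibroblasts and 2.38 in immune cells, and Cox7a2l, a related protein that takes part in respiratory supercomplexes, was at 4.201, 2.62 and 2.81.

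For subunit 8, the muscle form Cox8b was at 25.2 ± 2.36 per 10000 in muscle, from 21.4 to 29.1. It was at 0.0226 in fibroblasts and 0.0123 in immune cells. Cox8b too passed the low-count filter only with its muscle counts, so its difference is described by these levels. Cox8a, the widely expressed form, had a level in muscle of 1.71 ± 0.324, from 1.22 to 2.23, below every one of the fibroblast libraries, whose mean was 3.92. The muscle level was the lower one in 12 of 12 libraries, and the TMM-scaled difference was 0.01 (SE 0.11, edgeR adjusted p = 0.944) and the difference scaled by total UMIs -1.22. Without replicate 3 of ZT18 the TMM-scaled difference was -0.33. Cox8a was called lower with total UMIs and with RLE (-1.18), and was not called in the main TMM fit over the 12 libraries. With TMM it was called lower without the highest Scrublet scores (-0.79) and with clusters at resolution 2 (-0.49). With at least 10 muscle cells it was -1.23 and also called lower. No setting called it higher in muscle, so its difference relative to other genes depended on the scaling and on the cells and libraries summed.

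The proximal promoters of these pairs, the 250 bases before the start of the gene, are shown because each pair is a muscle form and a widely expressed form of a single subunit. They were read from RefSeq's GRCm38.p6 table, which matched 75 of the 94 members and does not list Cox6a2. Capitals mark matches, on either strand, to the NRF1 motif (GCGCA and GCGC parted by any 1 base), CCGGAAG (an ETS motif of the kind bound by GABP, found here as its reverse complement) or CAGCTG (an E-box of the kind bound by MyoD).
Cox6a1 promoter, chr5:115348959-115349208, minus strand: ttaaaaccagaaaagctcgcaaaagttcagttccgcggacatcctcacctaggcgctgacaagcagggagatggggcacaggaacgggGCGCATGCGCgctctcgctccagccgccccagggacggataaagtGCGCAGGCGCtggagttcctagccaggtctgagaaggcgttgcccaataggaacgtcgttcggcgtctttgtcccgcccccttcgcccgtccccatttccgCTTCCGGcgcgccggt
Cox7a1 promoter, chr7:30183921-30184170, plus strand: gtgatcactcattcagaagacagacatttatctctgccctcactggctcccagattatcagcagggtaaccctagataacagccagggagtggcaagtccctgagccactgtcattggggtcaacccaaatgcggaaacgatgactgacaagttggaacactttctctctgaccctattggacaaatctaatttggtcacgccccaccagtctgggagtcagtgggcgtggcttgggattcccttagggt
Cox7a2 promoter, chr9:79759854-79760103, minus strand: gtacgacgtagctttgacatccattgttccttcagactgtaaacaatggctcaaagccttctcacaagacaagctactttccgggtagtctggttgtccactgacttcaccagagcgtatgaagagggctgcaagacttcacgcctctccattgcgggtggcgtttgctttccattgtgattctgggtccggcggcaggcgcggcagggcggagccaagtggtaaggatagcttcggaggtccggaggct
Cox8a promoter, chr19:7217617-7217866, minus strand: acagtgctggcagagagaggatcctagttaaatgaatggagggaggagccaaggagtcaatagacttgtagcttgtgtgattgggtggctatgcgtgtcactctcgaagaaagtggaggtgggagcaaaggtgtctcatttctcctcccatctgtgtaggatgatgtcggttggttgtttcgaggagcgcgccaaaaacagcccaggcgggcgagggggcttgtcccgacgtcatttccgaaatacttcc
Cox8b promoter, chr7:140900447-140900696, minus strand: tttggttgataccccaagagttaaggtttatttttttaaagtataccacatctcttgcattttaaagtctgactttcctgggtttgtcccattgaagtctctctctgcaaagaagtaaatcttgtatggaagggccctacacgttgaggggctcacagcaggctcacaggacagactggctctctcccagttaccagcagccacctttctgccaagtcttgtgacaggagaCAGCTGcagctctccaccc

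The Cox6a1 promoter held the NRF1 letters at 2 places and the ETS letters at 1, the Cox8b promoter held the CAGCTG letters at 1, and the windows of Cox7a1, Cox7a2 and Cox8a held none of these. Over all 27025 promoters of this length, 3.86% held the NRF1 letters, 7.05% the ETS letters and 12.8% the CAGCTG letters, and of the 75 members 13 (17.3%), 13 (17.3%) and 6 (8%) did. The MEF2 letters, CTA and TAG parted by any 4 bases, were in 3.23% of all promoters and in 1 member (1.33%). No printed match overlaps another, and a match is a description of the sequence only.

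**Figure D3:**
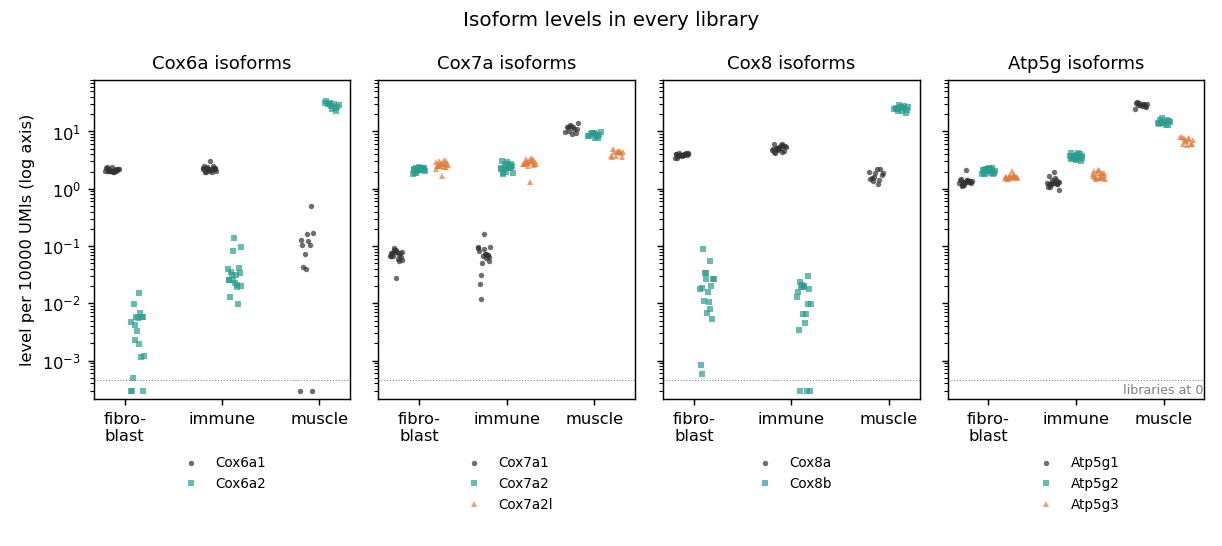
Levels per 10000 UMIs (log axis) of the Cox6a, Cox7a, Cox8 and Atp5g isoforms, with a point for each library in fibroblasts, immune cells (18 libraries each) and muscle cells (12 libraries). Points under the dotted line are libraries at 0, and Cox6a1 and Cox6a2 change places between muscle cells and the other cell types.

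The 3 genes that encode the same subunit c of the ATP synthase differed in their order. Atp5g2 was the highest of them in fibroblasts (2.05 per 10000, with Atp5g3 at 1.63 and Atp5g1 at 1.36) and in immune cells (3.61, 1.74 and 1.31). In muscle Atp5g1 was the highest, at 29.2 ± 2.28, with Atp5g2 at 14.6 and Atp5g3 at 6.96. Atp5g1 was higher in muscle by 5.65 on the log2 scale with TMM scaling (SE 0.09, edgeR adjusted p = 4.73e-18), and by 4.42 scaled by total UMIs. Ndufaf5, an assembly factor that modifies a complex I subunit, was at 2.10 in muscle and 0.0588 in fibroblasts of the same 12 libraries. Both genes were higher in 12 of 12 libraries with no overlap. Ndufaf5 passed the low-count filter only with its muscle counts, so its difference is described by these levels. Cox5a, a nuclear-encoded complex IV subunit, was higher by 5.49 (SE 0.11) and Uqcrq by 5.01 with TMM scaling, and by 4.26 and 3.775 scaled by total UMIs. In the Cox6b pair, Cox6b1 was at 2.52, 3.96 and 13.02 in fibroblasts, immune and muscle cells, and Cox6b2, known as a testis form, at 0.0404, 0.0904 and 0.00639.

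The few UMIs of the muscle forms in other cells were set against the 6 muscle markers in the same cells. Muscle cells had 12.7 Cox6a2 UMIs for every 1000 muscle-marker UMIs, and fibroblasts had 11.3, from 92 Cox6a2 UMIs. For Cox8b the ratio was 11.2 in muscle and 55.3 in fibroblasts, and for Cox7a1 5.02 and 237. In immune cells the ratios were 47.7 for Cox6a2, 15.9 for Cox8b and 106 for Cox7a1. Whether the UMIs in fibroblasts and immune cells were expressed there or came from free RNA was not tested.

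The mitochondrially encoded subunits moved the other way. Their 13 genes summed to 224 ± 18.8 per 10000 in fibroblasts, 322 ± 23.3 in immune cells and 29.9 ± 19.1 in muscle cells, where libraries ran from 4.73 to 66.4. All 13 were called lower in muscle than in fibroblasts, beside 46.5% of all genes tested. Their median was -1.89 on the log2 scale with TMM scaling and -3.13 scaled by total UMIs. By cell, the mitochondrial share of UMIs had a median of 2.20% in fibroblasts, 2.97% in immune cells and 0.0116% in muscle cells. The muscle group is a limited sample of muscle: 1649 barcodes had at least 5% of their UMIs in the 6 muscle markers, of which 724 were kept and 906 had fewer than 850 genes. The mitochondrially encoded level was 22.9 per 10000 in the kept ones and 46.9 in those with too few genes. The part of digestion and sorting in this difference was not tested.

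Lists of other genes of the pathway were counted in the same fit. Of 13 citric acid cycle genes 12 were higher in muscle, with Cs (citrate synthase) among them, and none was lower. Of 22 tested assembly factors outside the naming rule, 21 were higher and 1, Ttc19, a complex III factor, was lower. Of 9 carriers and partners 8 were higher, among them the ATP/ADP carrier gene Slc25a4 and the cytochrome c gene Cycs. Of 5 tested regulators 3 were higher (Esrra, Tfam and Tfb2m) and Gabpa, a subunit of the ETS factor GABP, was lower. These counts, all with TMM scaling, stand against the 36.1% of genes higher and 46.5% lower given above. In the order named, the list medians were 2.815, 2.24, 3.73 and 1.95 on the log2 scale. Scaled by total UMIs they were 1.58, 1.00, 2.50 and 0.70, and calls by list were not counted with that scaling.

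Immune cells, whose clusters were led by Fcna and Lyve1, Lyz1 and Ear2, Hbegf and Gdf15, Gzma and Nkg7, S100a9 and S100a8, and the mast cell genes Mcpt4 and Cma1, differed from fibroblasts by much less. Of 89 members tested in 18 libraries, 60 passed an adjusted p of 0.05 in edgeR, 35 higher and 25 lower, where 83.7% of all 11494 genes passed, 40.8% higher and 42.9% lower. At least 2-fold higher were 3 members (19.5% of genes) and 2-fold lower were 2 (22.2% of genes), both shares of members being under those of all genes. The split depended on the scaling: RLE gave 27 higher (38.7% of genes) and 29 lower (45.4%), total UMIs 36 (41.4%) and 25 (42.2%), and 27 were called higher and 25 lower in each of the 3 scalings. Without replicate 1 of ZT14, 32 were higher and 26 lower, beside the 40.8% and 42.9% of genes in the fit of all libraries.

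By complex, 18 genes of complex I were lower in immune cells and 10 higher, of 36. The others had 8 higher and 2 lower of 17 in complex V, 9 and 3 of 15 tested in complex IV, 6 and 1 of 9 in complex III, and 1 and 0 of 4 in complex II, that 1 being Sdhc. Of the 8 assembly factors, Ndufaf7 was higher, Ndufaf2 was lower and 6 did not pass. These counts are to be read beside the 40.8% of genes higher and 42.9% lower, and the complexes were not tested against each other. The median difference was -0.15 on the log2 scale in complex I and 0.14 in complex IV, beside -0.02 over all genes.

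Cox5a, a nuclear subunit of complex IV, rose the most. Its level was 0.977 ± 0.175 per 10000 in fibroblasts and 2.48 ± 0.432 in immune cells, the library ranges did not overlap, and it was higher by 1.34 on the log2 scale in 18 of 18 libraries (SE 0.05, edgeR adjusted p = 1.14e-17). Ndufs8, an iron-sulfur subunit in the arm of complex I that receives electrons from NADH, was at 0.346 ± 0.0420 and 0.725 ± 0.0832, also without overlap, and higher by 1.06 (SE 0.05, edgeR adjusted p = 1.69e-15). Its level in muscle was 1.94. Atp5g2 was higher by 0.81, Cox6b1 by 0.64 and Uqcrq by 0.64, each in 18 of 18 libraries, and the ranges overlapped only for Uqcrq among them. Cox6b2 was higher by 1.05 (SE 0.18) in 17 of 18 libraries at a level of 0.0904 against 0.0404.

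Among the members lower in immune cells, Ndufaf2, an assembly factor of complex I, was at 0.158 ± 0.0301 against 0.321 ± 0.0381 per 10000 in fibroblasts. It fell by 1.02 on the log2 scale in 18 of 18 libraries, with no overlap (SE 0.07, edgeR adjusted p = 5.13e-13). Of the accessory subunits of complex I, Ndufa5 fell by 0.67, Ndufs4 by 0.66 and Ndufa11 by 0.60, each lower in 18 of 18 libraries, with no overlap for Ndufs4 alone of these. Of the mitochondrially encoded subunits 9 of 13 were higher in immune cells and 1, mt-Nd3, was lower. The citric acid cycle had 7 higher and 4 lower of 13, the other assembly factors 7 and 8 of 23 tested, the regulators 3 and 3 of 9 tested, and the carriers and partners 6 and 2 of 9. The background for the counts of these lists is the 40.8% of all genes higher and 42.9% lower.

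Ndufa4l2, a paralog of the complex IV subunit gene Ndufa4 that is known as a target of hypoxia signalling, varied widely among fibroblasts. Its level in fibroblasts was 0.159 ± 0.120 per 10000, from 0.0443 to 0.434 over the 18 libraries, and 0.0144 in immune cells. The level was lower in immune cells in 18 of 18 libraries, although the ranges overlapped. Ndufa4l2 passed the low-count filter through its fibroblast counts, so its difference is described by these levels. Ndufa4 itself was at 2.92, 2.55 and 14.9 in fibroblasts, immune and muscle cells.

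Within fibroblasts, 1 cluster held most of the Ndufa4l2 counts. It was led by Cthrc1, Tnmd and Tnfaip6, made up 645 cells or 5.25% of fibroblasts, and held 2654 of the 3493 Ndufa4l2 UMIs, 76.0% of them. A Ndufa4l2 UMI was found in 50.2% of its cells, against 0.918% to 1.93% in the 5 largest fibroblast clusters. With 2 further clusters, led by Cilp and by Agt, it made up 14.7% of fibroblasts and 94.5% of the Ndufa4l2 UMIs. Its level was 1.32 ± 0.449 per 10000 (n = 12 libraries). The same cluster held 359 of the 451 fibroblast Cox8b UMIs (79.6%), in 18.9% of its cells. Its summed level over all members was 94.3 ± 5.98 per 10000, below the means of 129 to 149 in the other fibroblast clusters. These clusters were made from the same cells and are described with no test.

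The second question was whether the members followed the time of day. In fibroblasts a 24 h cosine was fitted to the counts of the 18 libraries with edgeR, and 6 of 90 members tested passed an adjusted p of 0.05, where 13.5% of all 12425 genes passed. At an unadjusted p under 0.05 there were 18 members, against 29.4% of genes. The members' share of calls was 6.67%, under the background, and their median log2 amplitude was 0.06 beside 0.13 for all genes. Fitted amplitudes cannot be negative and rise with counting noise. Levels were not matched, so these medians do not measure how rhythmic the members were. By complex, 3 calls were in complex I, 1 in complex IV, 2 among the assembly factors, and none in complexes II, III and V. The count varied with the method: 10 with scaling by total UMIs (12.8% of genes), 13 with DESeq2 (19%), 5 with the day of collection as a block (13.7%) and 3 with time as 6 separate groups (8.51%). In JTK_Cycle 16 of 93 members (17.2%) had an unadjusted p under 0.05, beside 8.91% of 22265 genes. That test took every gene with a UMI, without the low-count filter, and periods of 20, 24 and 28 h. Its shares are therefore not comparable with those above.

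Ndufs8 had the smallest p. Its fibroblast levels were lowest at ZT10, with 0.307, 0.283 and 0.296 per 10000 in replicates 1 to 3. They were highest at ZT22, with 0.398, 0.372 and 0.396. These groups did not overlap, but the times were chosen here by their means. The fitted log2 amplitude was 0.19 with a peak at ZT21.5 (edgeR adjusted p = 0.00656), equal to 13.98% of the mean level. The call held without any 1 of the 18 libraries and was lost with time as 6 separate groups (adjusted p = 0.0727). Ndufv3, a small accessory subunit of complex I, had a like course, with 1.02, 1.01 and 1.198 at ZT10 and 1.27, 1.36 and 1.34 at ZT22. Its log2 amplitude was 0.16 with a peak at ZT22.9 (edgeR adjusted p = 0.00803), and it also held without any 1 library.

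The other calls peaked earlier in the night. Ndufaf4, an assembly factor of complex I, was at 0.108, 0.128 and 0.128 per 10000 at ZT2 and at 0.356, 0.232 and 0.233 at ZT14, where replicate 1 was the highest. Its log2 amplitude of 0.39 was the largest of the 6, with a peak at ZT14.5 (edgeR adjusted p = 0.0213). Without replicate 1 of ZT14 the amplitude was 0.30 (adjusted p = 0.0432), and of the 18 libraries left out in turn, replicate 1 of ZT2 alone ended the call (adjusted p = 0.0516). JTK_Cycle did not call Ndufaf4 at an unadjusted p under 0.05 (exact p = 0.0925). Cox5a was at 0.742, 0.797 and 0.895 at ZT6 and at 1.54, 1.09 and 1.12 at ZT14, again highest in replicate 1. Its log2 amplitude was 0.22 with a peak at ZT15.8 (edgeR adjusted p = 0.0213, and 0.0191 without replicate 1 of ZT14), and the call held without any 1 library.

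The last 2 calls were at the edge of the threshold. Ndufb4, an accessory subunit of complex I, was at 0.885, 0.922 and 1.18 per 10000 at ZT6 and 1.65, 1.31 and 1.21 at ZT14, with a log2 amplitude of 0.17 and a peak at ZT15.7 (edgeR adjusted p = 0.0429). The call was lost without 11 of the 18 libraries in turn, replicate 1 of ZT14 among them (adjusted p = 0.0687). Ndufaf2 was at 0.282, 0.278 and 0.294 at ZT10 and 0.317, 0.391 and 0.350 at ZT18, with a log2 amplitude of 0.15 and a peak at ZT19.6 (edgeR adjusted p = 0.0478). It was lost without 14 of the 18 libraries in turn, and with the day of collection as a block (adjusted p = 0.0536). The next by p, none of which passed, were Ndufab1 (adjusted p = 0.0554), Uqcrq (0.0579), Ndufc1 (0.0746), Ndufb2 (0.0748), Ndufa8 (0.0748) and Ndufaf5 (0.0938).

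**Figure D4:**
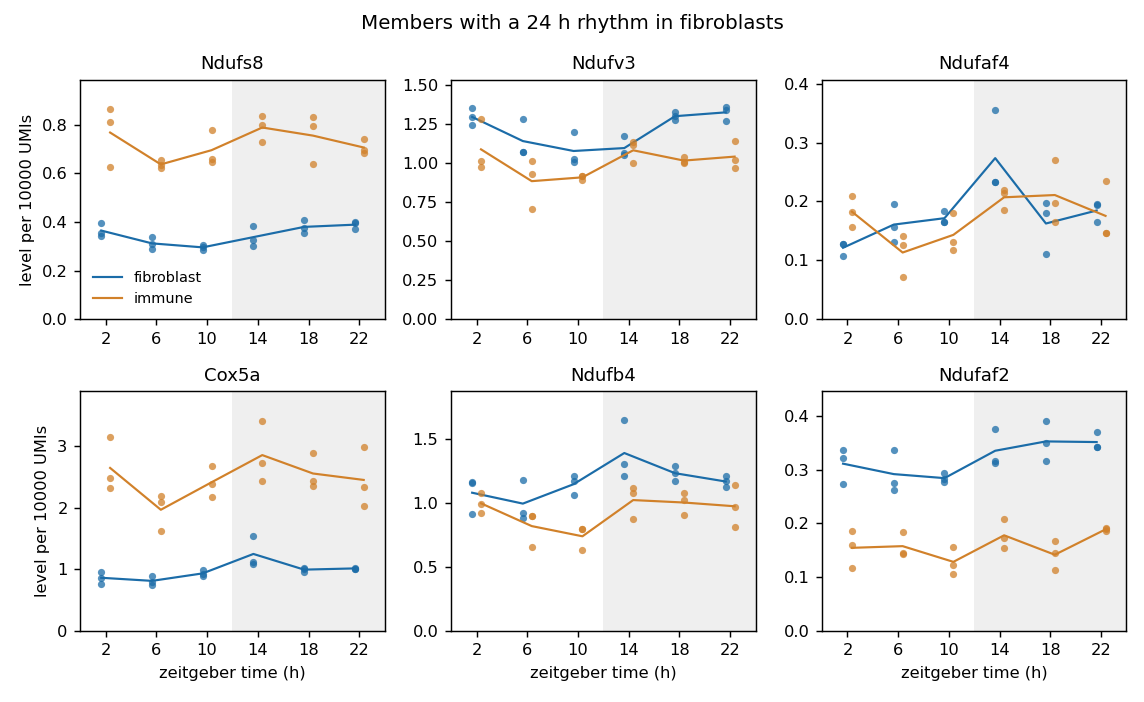
Levels per 10000 UMIs of the 6 members called rhythmic in fibroblasts, by zeitgeber time, in fibroblasts and immune cells. Points are the 18 libraries, lines join the means of the 3 replicates at each time, the dark phase is shaded, and the highest ZT14 point of Ndufaf4, Cox5a and Ndufb4 in fibroblasts is replicate 1.

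Most members, called or not, had their fitted peak in the dark phase. Of the 90 members tested in fibroblasts, 70 (77.8%) peaked between ZT12 and ZT24, beside 50.7% of all genes tested, and of 88 in immune cells 78 (88.6%), beside 51.1%. In muscle cells it was 19 of 86 (22.1%), beside 54.6%. Most of these peaks belong to fits that did not pass, members of a library share its depth and scaling, and the counts carry no test.

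By the means of the 3 replicates, the level was lowest at ZT6 for 47 of 90 members in fibroblasts (20.3% of genes) and highest at ZT14 for 45 (33.1% of genes). In immune cells it was lowest at ZT6 for 58 of 88 (22.3% of genes) and highest at ZT14 for 51 (22.9% of genes). Without replicate 1 of ZT14, the count highest at ZT14 was 34 of 90 in fibroblasts (30.9% of genes) and 40 of 88 in immune cells (21.8% of genes). The summed level in fibroblasts had means of 133, 128, 130, 140, 137 and 137 per 10000 from ZT2 to ZT22, and the ZT6 libraries (122, 123 and 140) overlapped those of ZT14 (146, 137 and 136). A cosine through these sums had an amplitude of 3.98% of the mean. In immune cells the means were 152, 134, 144, 159, 148 and 146, and the ZT6 libraries (126 to 144) lay below those of ZT14 (150 to 165), times chosen here by their means. Without replicate 1, the ZT14 mean was 137 in fibroblasts and 158 in immune cells.

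**Figure D5:**
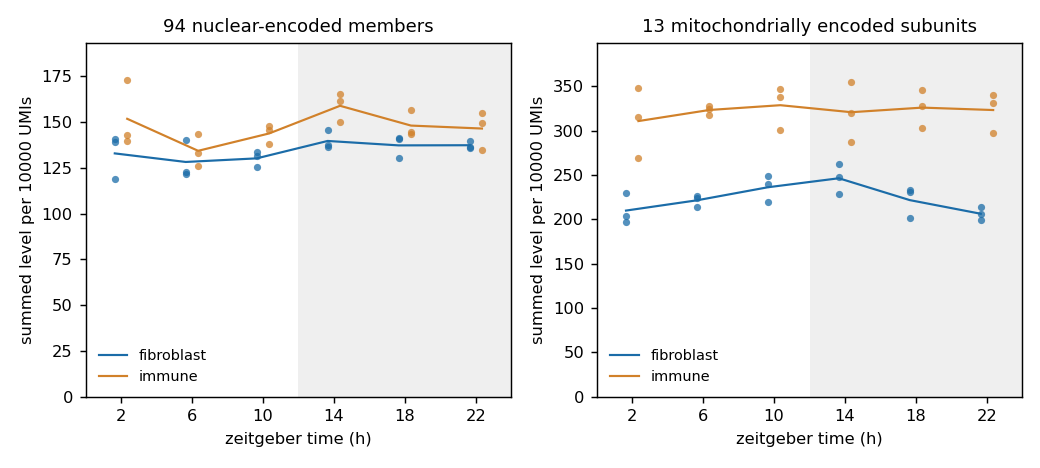
Summed level per 10000 UMIs of the 94 members (left) and of the 13 mitochondrially encoded subunits (right) by zeitgeber time in fibroblasts and immune cells. Points are libraries, lines join the means of the 3 replicates, the dark phase is shaded, both axes start at 0, and the immune member sums at ZT6 lie below those at ZT14, whereas the fibroblast sums of these times overlap.

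In immune cells 0 of 88 members passed in edgeR (0.0689% of 10161 genes did), with 3 at an unadjusted p under 0.05, against 8.15% of genes. These were Ndufaf3, a complex I assembly factor (adjusted p = 0.588), Ndufaf4 (0.588) and Ndufb4 (0.606), followed by Uqcrb, Atp5h and Sdhd. DESeq2 called 0 as well (0.295% of genes). JTK_Cycle gave 4 of 92 members at an unadjusted p under 0.05 (4.35%), beside 2.59% of the 19721 genes with a UMI, again without the low-count filter. In muscle cells 0 of 86 passed in edgeR (0.0937% of 3201 genes), with 4 at an unadjusted p under 0.05 (6.22% of genes), and 0 with DESeq2 (0.375% of genes). These were Uqcrc2, Cox6a2, Atp5f1 and Ndufb5, named after their values were seen. The 12 muscle libraries cover the 6 times unevenly, with 1 library at ZT2.

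Whether the rhythm differed between fibroblasts and immune cells was tested with an interaction term. It passed for 0 of 89 members in edgeR (0.305% of 11494 genes) and for 0 in DESeq2 (0.809%), with 3 members at an unadjusted p under 0.05 (9.35% of genes): Ndufs8 (adjusted p = 0.450), Ndufaf3 (adjusted p = 0.475) and Uqcrc2 (adjusted p = 0.513). The next were Sdhd, Ndufa9 and Ndufb4. The rhythm of Ndufs8 in fibroblasts was therefore not shown to differ from that in immune cells.

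Other genes of the pathway were counted in the same fibroblast fit. Of 13 mitochondrially encoded subunits 2 passed (mt-Atp6 and mt-Cytb), of 24 assembly factors outside the rule 3 (Uqcc2, Cox17 and Sdhaf3), of 9 carriers and partners 2 (Vdac1, the outer membrane channel, and Cycs), and of the 13 citric acid cycle genes and the 9 regulators none at an adjusted p under 0.05, with 2 in each at an unadjusted p under 0.05. The background for these counts is the 13.5% of all genes.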

How the data were processed

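Single-cell RNA-seq of dorsal dermis was analysed from the deposited UMI counts per gene and cell barcode, which the authors made with Cell Ranger 3.1.0 against mm10, with no normalization. Reads shared between near-identical copies (processed pseudogenes) may be left uncounted, so levels of such members are uncertain.

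Cells with over 850 and under 7800 genes and under 13% mitochondrial UMIs were kept. Counts were log-normalized, the members and the mitochondrially encoded genes removed, and cells clustered with scanpy 1.11.5 (2000 variable genes, 30 components, 15 neighbours, Leiden resolution 0.8, leidenalg 0.10.2). Clusters were named from marker lists. Doublets were not removed, and removing the highest Scrublet scores was an alternative.

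Counts were summed by library and cell type (at least 20 cells) and tested with edgeR 4.0.16 in R 4.3.3 (quasi-likelihood F test, TMM, filterByExpr, Benjamini-Hochberg adjustment over all genes tested, threshold 0.05). Cell types were compared with library as a block. Rhythms were fitted with a cosine and a sine of 24 h. DESeq2 1.42.0 and JTK_Cycle were alternatives. JTK_Cycle was written anew and run on levels of every gene with a UMI, at periods of 20, 24 and 28 h. Simulated counts held 200 genes of higher count changed by 1 on the log2 scale, for rhythms an amplitude of 1. The fit between immune cells and fibroblasts recovered 192 among 11117 genes, with 6 false calls. That between muscle cells and fibroblasts recovered 132 among 9090, with 5 false calls, and the fibroblast rhythm fit 198 among 12330, with 18. The rhythm fits in immune and muscle cells recovered 190 and 182, and the interaction fit 178. The simulated cell types shared their mean levels apart from the changed genes, so the scaling between cell types was not tested by these counts. Recovery of smaller changes was not simulated, and the members called rhythmic had log2 amplitudes of 0.15 to 0.39. Library depth was 4850221 to 40827442 UMIs.

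Replicate numbers mark the day of collection in the titles. Same-numbered libraries of different times had a median correlation of deviations of 0.0347 in fibroblasts and 0.0147 in immune cells, and the day was an alternative block. Each library came from a separate mouse, so p-values of the rhythm fits within a cell type measure the spread between mice and their preparation. Comparisons of cell types and the interaction test had library as a block. Their p-values measure how the difference between cell types within a library varies over libraries.

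The members and all lists were chosen with earlier results of these data known. Genes were named by a rule: the 2 highest in each complex, the 5 largest rises and falls called and alike in every library, the 12 smallest rhythm p in fibroblasts, the 6 smallest in immune cells and for the interaction, the isoform sets, and Ndufs8. Ndufs1, Sdha and the muscle genes with the smallest rhythm p were named after their values were seen, as were the genes named in other lists. Endothelial and unnamed clusters were left out. Some single genes of the lists are not reported here by name.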

Additional observations from a re-analysis of the deposited data

Results flagged for a closer look

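Barcodes set aside by the gene minimum held a member signal. Of the 1649 barcodes with at least 5% of UMIs in the 6 muscle markers, 906 had fewer than 850 genes and entered no comparison. Their median was 1346.5 UMIs, and the members were at 820.2 per 10000 of their summed UMIs, against 833 in the 724 muscle-marked barcodes that were kept and 134 in fibroblasts. A further 17 failed both limits and 2 the mitochondrial limit alone.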

How the results depend on the processing

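The summed levels stayed within 1 SD under every alternative tried, and leaving out each library gave 134 to 135 per 10000 in fibroblasts, 146 to 148 in immune cells and 819 to 834 in muscle cells. The count differing between immune cells and fibroblasts was 55 to 61 with a library left out, that between muscle cells and fibroblasts 88 to 89, and that of rhythmic members in fibroblasts 4 to 9, with 0 to 0 for the rhythms in immune and muscle cells and for the difference in rhythm between fibroblasts and immune cells. In the main fits 83.7%, 82.6% and 13.5% of genes were called for the first 3 of these, in the same order. Rhythmic members in fibroblasts numbered 10 with scaling by total UMIs, 13 with DESeq2, 3 with time as 6 groups, and 16 of 93 at an unadjusted p under 0.05 in JTK_Cycle, which gave 4 in immune cells. With the replicate block for the day of collection there were 5 in fibroblasts and 0 in immune and muscle cells, and no call but that of Ndufaf2 was lost. Directions reversed for 3 genes between muscle cells and fibroblasts, and the cause was not tested beyond the scaling: Ndufaf2, 0.79 on the log2 scale, was -0.40 with RLE, -0.45 with total UMIs, -0.40 with DESeq2 and -0.50 with at least 10 muscle cells, and its call was lost without the highest Scrublet scores (0.05); Ndufaf7, 0.55, was -0.65 with RLE and -0.69 with total UMIs; Cox8a, 0.01, was -1.18 with RLE, -1.22 with total UMIs, -1.16 with DESeq2, -0.79 without the highest Scrublet scores, -0.49 with clusters at resolution 2 (chosen after seeing the data), -1.23 with at least 10 muscle cells, and between -0.33 (without replicate 3 of ZT18) and 0.039 with a library left out. Leaving out that library gave 86 members higher and 2 lower in muscle, beside the 36.1% of genes higher and 46.5% lower in the fit of the 12 libraries. The shares of genes without that library are not given. Cox4i2, Cox7b2 and Cox8c had too few UMIs to pass the low-count filter, so no comparison of them is given. Whether depth or lack of expression limited them was not tested.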

Other observations

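Among immune clusters the summed level of all members was 181 ± 11.9 per 10000 (SD, n = 5 libraries) in a cluster led by the cytotoxic lymphocyte genes Gzma and Nkg7, 162 ± 14.4 (n = 17) in a cluster led by Lyz1 and Ear2, and 145 ± 13.2 (n = 18) in a cluster led by the macrophage genes Fcna and Lyve1. It was 91.0 ± 8.81 (n = 5) in a cluster led by Hbegf and Gdf15, and 52.3 in the 1 library, replicate 1 of ZT14, that had enough cells of the cluster led by S100a9 and S100a8. These clusters came from the same cells and carry no test.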
